A study of Arvicanthis niloticus with 5 samples.

Results

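The beta crystallins are the oligomeric structural proteins of the eye lens, and 6 genes of the family were looked for in RNA of the Nile rat (Arvicanthis niloticus) eye: the acidic chains Cryba1, Cryba2 and Cryba4 and the basic chains Crybb1, Crybb2 and Crybb3. A gene was taken as measured where an assembled transcript carried its symbol in the mouse, rat or human name column of the deposited ortholog table, which held for 5 of the 6, out of 13982 named genes in all. Cryba1 was not analysed here, since its symbol stood on no transcript. The material was whole eye tissue of wild-type animals, with no treatment, age or time of day given in the labels. The labels list 5 samples in a single group, and RNA of 5 rats was pooled for the library. The expression table holds 1 value per transcript for the whole series, and the sources do not state whether it covers all 5 samples. It is treated here as 1 pool, so all levels below are without replicate error and without a test between animals, and brackets give 95% intervals for counting error alone. The table rests on 64967222 mapped fragments.

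Beta crystallins share a fold with the gamma crystallins, in which Greek key motifs are packed into a pair of domains. Unlike the gamma crystallins, which stay monomeric, beta chains associate into dimers and larger oligomers, and acidic and basic chains mix in these assemblies. Both kinds of chain carry an N-terminal extension, and basic chains carry a C-terminal extension as well. Elongating fibre cells of the lens make these proteins at very high levels, and fibre cells keep them for life because the mature cells lose their nuclei. Mutations in several of these genes cause hereditary cataract.

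Each measured member was carried by a single transcript. The level is given as FPKM, the fragments per kilobase of assembled transcript and per 1000000 mapped in all. Comparison between genes in this unit rests on the assembled lengths, which are divided out in full without a correction for short transcripts. Cryba4, an acidic chain whose human counterpart is mutated in some congenital cataracts, was the highest of the 5 at 2315 FPKM [2302 to 2329]. It rested on 113870 estimated fragments over a transcript of 757 nt. Cryba2, the other acidic chain with a transcript, was at 1410 FPKM [1396 to 1424], from 39308 fragments over 429 nt. The acidic chains thus took the highest and the middle place among the measured members. Cryba1, whose single mRNA is known to yield a pair of chains through alternative start codons, has no value here, so the acidic class is incomplete.

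Among the basic chains, Crybb3 was highest at 1802 FPKM [1789 to 1816], from 68490 fragments over 585 nt. Crybb1, a chain with a long N-terminal extension that is trimmed as the lens ages, was at 989.5 FPKM [978.4 to 1001], from 30279 fragments over 471 nt. Crybb2, known as a very abundant and soluble beta chain of the mature mammalian lens, was the lowest member at 502 FPKM [497 to 507]. Its 41949 fragments were spread over a transcript of 1286 nt, the longest of the 5 and 1.70 to 3.00 times the length of the others. All 3 basic chains had a value, and they spanned 3.59-fold between Crybb2 and Crybb3.

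**Figure D1:**
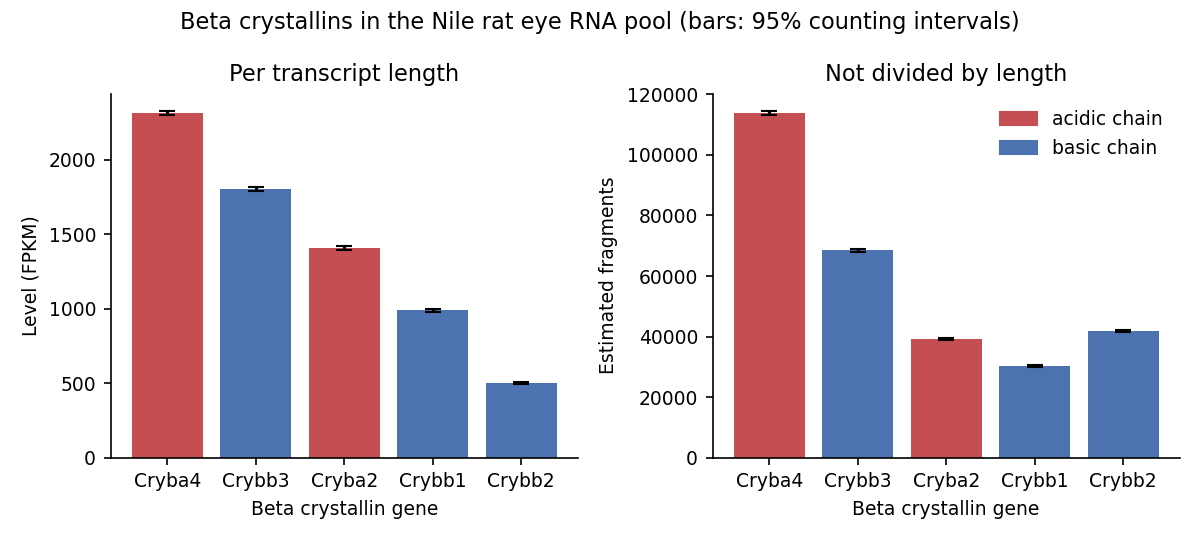
Level in FPKM (left axis from 0) and estimated fragments not divided by length (right, axis from 0) of the 5 measured beta crystallins in the single eye pool, with 95% counting intervals as error bars, acidic chains in red and basic chains in blue. Cryba4 is highest on both scales, while Crybb2 is lowest at 502 FPKM but above Cryba2 and Crybb1 by fragments at 41949.

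The order of the levels was Cryba4, Crybb3, Cryba2, Crybb1 and Crybb2, with a span of 4.61-fold from first to last. Of the 10 ratios between members, none had a counting interval that included equality. Cryba4 was 1.28-fold [1.27 to 1.30] above Crybb3, and Crybb3 was 1.28-fold [1.26 to 1.29] above Cryba2. Cryba2 was in turn 1.43-fold [1.40 to 1.45] above Crybb1, and Crybb1 was 1.97-fold above Crybb2, with a lower interval end of 1.94-fold. The counting intervals were within 1.13% of each level on either side, but how far these ratios vary between animals was not measured.

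The lower part of this order depended on the division by transcript length. Counted as fragments, Crybb2 stood above Cryba2 and Crybb1: the log2 ratio of Cryba2 to Crybb2 went from 1.49 in FPKM to -0.094 in fragments, and that of Crybb1 to Crybb2 from 0.98 to -0.47. These were the 2 ratios of the 10 that changed sign. Cryba4 and Crybb3 kept the first and second place on both scales, and Cryba4 held 33.0% of the beta crystallin FPKM and 38.7% of the beta crystallin fragments. Crybb2 held 7.15% of the FPKM and 14.3% of the fragments. Whether each transcript covers the whole mRNA was not tested.

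Acidic and basic chains were close in total. The 2 measured acidic chains summed to 3726 FPKM [3706 to 3745] and the 3 basic chains to 3294 FPKM [3276 to 3312], a 1.13-fold [1.12 to 1.14] higher acidic sum and a log2 ratio of 0.18 [0.17 to 0.19]. The acidic sum lacks Cryba1 and is a lower bound for that class as named here. As a mean per measured chain the acidic level was 1863 FPKM and the basic level 1098 FPKM, a log2 ratio of 0.76. In fragments the acidic chains held 153178 and the basic chains 140718, a log2 ratio of 0.12.

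The direction of the acidic to basic ratio rested on both acidic chains. Without Cryba4 the log2 ratio was -1.22, and without Cryba2 it was -0.51. Leaving out a basic chain moved it the other way, to between 0.42 without Crybb2 and 1.32 without Crybb3. Dropping an acidic chain can only lower this ratio and dropping a basic chain can only raise it. These values therefore describe the weight of each chain and are no test of the direction. With transcripts of under 500 nt left out, which removes Cryba2 and Crybb1, the ratio was 0.0070 [-0.0053 to 0.019], an interval that includes equality. Levels also overlapped between the classes, since the basic chain Crybb3 lay above the acidic chain Cryba2. The genes of a class are not replicates, and no test over genes was made.

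All 5 measured members stood in the far upper tail of the named genes. Each was at 10 FPKM or more, against 34% of all named genes, at 100 FPKM or more, against 2.21%, and at 500 FPKM or more, against 0.236%. The 3 members Cryba4, Crybb3 and Cryba2 reached 1000 FPKM, against 0.093%. The median named gene was at 6.50 FPKM, so that Crybb2 was 77.2-fold and Cryba4 356-fold above it. By FPKM, Cryba4 ranked 3, Crybb3 ranked 5, Cryba2 ranked 8, Crybb1 ranked 14 and Crybb2 ranked 33. By fragments these ranks were 4, 11, 40, 62 and 35.

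**Figure D2:**
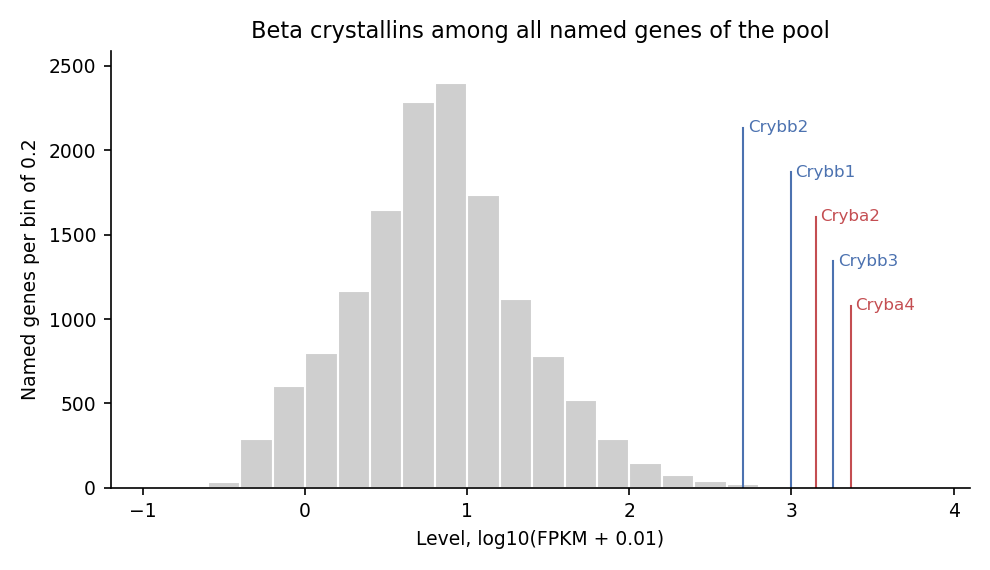
Distribution of the level of the 13982 named genes as log10(FPKM + 0.01) (grey bars, genes per bin) with the 5 measured beta crystallins as vertical lines (acidic red, basic blue; line heights are for legibility only). The members lie between 502 and 2315 FPKM, to the right of nearly all named genes, whose median is 6.50 FPKM.

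The genes next to the members in this ranking were in part lens genes. Cryab, the alpha B crystallin, a small heat shock protein, stood directly above Cryba4 at 2894 FPKM, and Crygc, a gamma crystallin, directly below Crybb3 at 1668 FPKM. Cryba2 followed Grifin, a galectin relative of the lens, which was at 1528 FPKM, and lay just above a mitochondrial transcript named cytochrome b at 1392 FPKM. Crybb1 fell between lengsin (Lgsn), which stood at 1063 FPKM, and the beaded filament protein filensin (Bfsp1), which stood at 931 FPKM. Around Crybb2 stood genes without lens specificity, Gngt1 of the rod transducin at 502 FPKM and Park7 at 499 FPKM, and both levels lay within the counting interval of Crybb2. With a single pool, no likeness of patterns across samples could be computed.

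Against the other crystallin classes, the beta crystallins made up 39.4% of the crystallin FPKM, the gamma crystallins 37.2% and the alpha crystallins 23.4%. These sums hold 5 of 6 beta, 6 of 8 gamma and 2 of 2 alpha genes. The beta sum was 7019 FPKM [6993 to 7046], 1.69-fold [1.68 to 1.70] above the alpha sum of 4157 FPKM and 1.06-fold [1.05 to 1.07] above the gamma sum of 6621 FPKM. In fragments the beta crystallins held 54.0% of the crystallin total, and the ratios were 3.61-fold over alpha and 1.74-fold over gamma. The beta transcripts had a median length of 585 nt, against 309 nt for the alpha and 442 nt for the gamma transcripts. When transcripts below 500 nt were dropped, the log2 ratio of beta to gamma went from 0.084 to 2.81 and that of beta to alpha from 0.76 to 5.46, since most alpha and gamma transcripts are shorter than that. The size of the excess of beta over both classes thus depended on short transcripts and on the scale. Whether beta exceeds gamma over the complete classes was not measured, since genes of both lack a value.

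The measured beta crystallins were more even among themselves than the measured gamma crystallins, but less even than the alpha crystallins. The 6 measured gamma crystallins spanned 252-fold, from Crygn at 14.4 FPKM to Crygb at 3621 FPKM. The 5 measured beta crystallins spanned 4.61-fold and the 2 alpha crystallins 2.29-fold. The wide gamma span rested on Crygn and Cryga, with the other measured gamma genes between 634 and 3621 FPKM. These spans describe 1 pool. Of the gamma genes, Cryga at 38.4 FPKM and Crygn lay below every measured beta member, and Crygd (634 FPKM), Crygs (645 FPKM), Crygc and Crygb lay above Crybb2. Cryge and Crygf were not analysed here, since their symbols stood on no transcript. Of the alpha crystallins, Cryab was at 2894 FPKM, above every measured beta member. Cryaa summed to 1263 FPKM, of which 1158 FPKM came from a transcript of 249 nt and 105 FPKM from a transcript of 676 nt. As a sum it lay above Crybb1 and Crybb2, and by its longer transcript alone it lay below both.

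**Figure D3:**
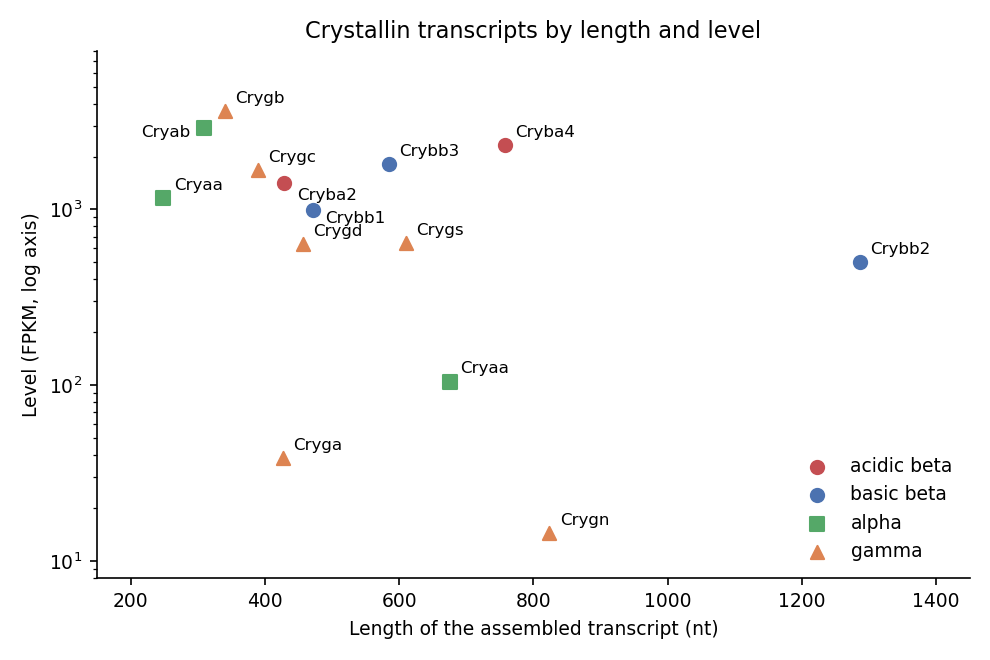
Level in FPKM (log axis) against the length in nt of each assembled crystallin transcript in the eye pool, with acidic beta (red circles), basic beta (blue circles), alpha (green squares) and gamma (orange triangles) chains. Cryaa appears as 2 transcripts, of 249 and 676 nt; Crybb2, at 1286 nt, is the longest crystallin transcript shown, and the beta members lie within a 4.61-fold band of levels.

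Fragments of the beta crystallins were in part divided between transcripts. The estimated count was fractional for 4 of the 5 members, all except Cryba4, whose count was whole (within 1e-06 of a whole number). By the same tolerance a fractional count was found for 44% of all named transcripts and for 82.4% of the 415 named transcripts with at least 10000 fragments, which is the range of the members. The share among the members is therefore near that of other abundant transcripts. The sources used here do not say which transcripts shared these fragments. Any division of fragments between transcripts carries an error that the counting intervals do not hold.

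The names behind the members differed in strength. Cryba2 carried the same symbol in all 3 species columns and Cryba4 in the mouse and human columns. Crybb1 and Crybb3 were named in the human column only, and Crybb2 in the mouse column only. On none of the 5 transcripts did the columns give conflicting symbols. The second ortholog table gave 11 Ensembl identifiers for these transcripts, and 0 further transcripts carried any of them.

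The genes that carry beta-gamma crystallin domains but serve outside the lens were low in the same pool. Crybg1, found under its earlier symbol Aim1, was at 7.77 FPKM [7.50 to 8.06], near the median of named genes. Crybg2, under its earlier symbol Aim1l, was at 2.24 FPKM [2.07 to 2.42], and Crybg3 was at 1.14 FPKM [0.916 to 1.39]. All 3 lay below the lowest measured beta crystallin, a level that only 33 of the 13982 named genes reached.

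In the Nile rat RefSeq annotation (assembly mArvNil1.pat.X), used here only for gene order, 4 of the members form 2 adjacent pairs on the same chromosome. Cryba4 and Crybb1 lie side by side with 0 genes between them, and so do Crybb2 and Crybb3, with 11 protein-coding genes separating the pairs. In each pair the partners were both abundant but unequal: Cryba4 was 2.34-fold [2.31 to 2.37] above Crybb1, and Crybb3 was 3.59-fold [3.55 to 3.63] above Crybb2. Cryba1 and Cryba2 lie elsewhere, each without another member on its chromosome.

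The genes around the members were at ordinary levels. At the locus of the 4 linked members, 12 of 14 neighbours had a transcript, counting the protein-coding genes with a symbol that lie between the pairs and 3 on either side. They ranged from 1.31 FPKM for Ttc28 to 12.6 FPKM for Tpst2, a tyrosylprotein sulfotransferase, with a median of 6.17 FPKM. Grk3, a G protein-coupled receptor kinase found under its earlier symbol Adrbk2, was at 6.84 FPKM. It is the last of these genes with a symbol before Crybb2. Kiaa1671, the first of them after Crybb3, was at 5.04 FPKM. Beside Cryba2, the 4 measured of 6 neighbours reached at most 17.6 FPKM, in Cdk5r2, an activator of the kinase CDK5. Over all 3 loci the lowest measured beta crystallin was 28.5-fold above the highest of the 20 measured neighbours.

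**Figure D4:**
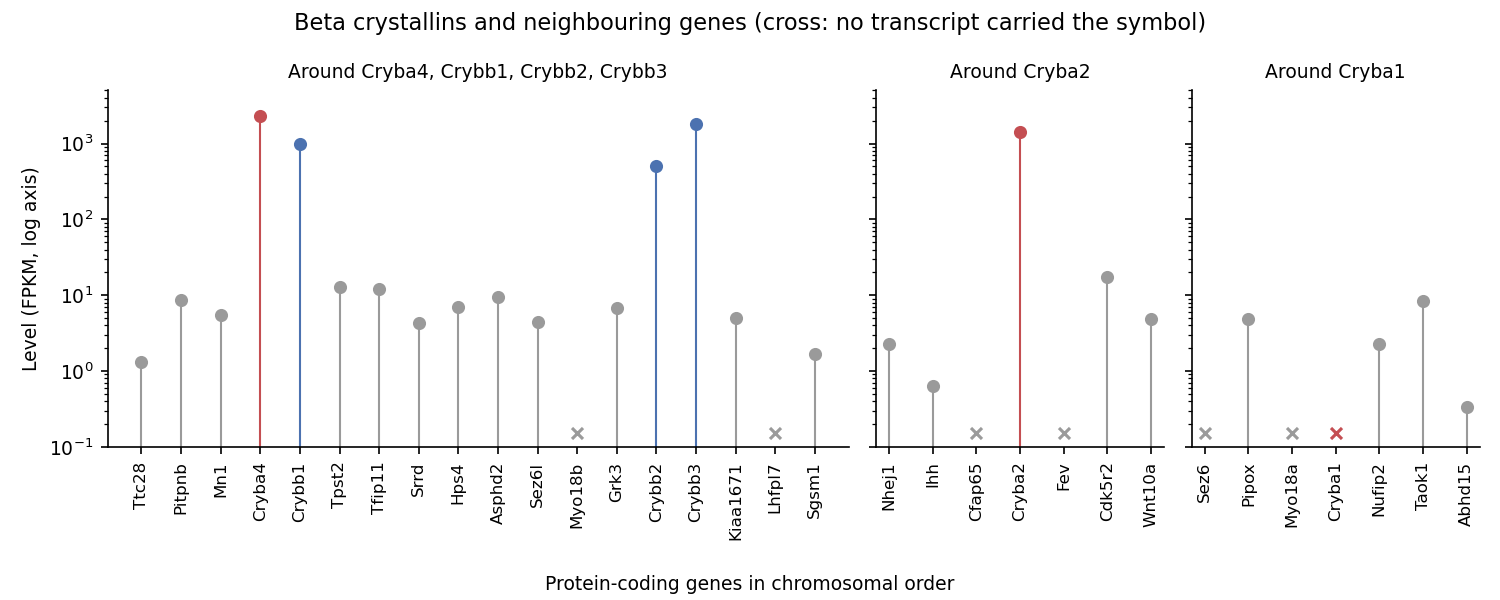
Level in FPKM (log axis) of the beta crystallins (acidic red, basic blue) and of neighbouring protein-coding genes (grey) in chromosomal order, for the linked members and for Cryba2 and Cryba1; crosses mark genes whose symbol no transcript carried, Cryba1 among them. The measured neighbours lie between 0.336 and 17.6 FPKM and the measured members between 502 and 2315 FPKM.

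Transcription factors with roles in the lens were read from a list of 19 genes, 18 of which had a transcript. Their median was 9.02 FPKM, beside 6.50 FPKM over all named genes. None reached 100 FPKM, a level reached by 2.21% of all named genes. Pax6, a master regulator of eye development that is also made in retina and cornea, was highest at 92.3 FPKM [90.7 to 94.0]. Maf, which activates crystallin genes in fibre cells, was at 14.8 FPKM, and Prox1, a factor of fibre elongation, at 11.3 FPKM. Sox1, needed for gamma crystallin expression, was at 2.84 FPKM, Hsf4 at 2.39 FPKM and the lens epithelial factor Foxe3 at 7.92 FPKM, while Sox11 was lowest at 0.520 FPKM. Several of these factors are expressed in other tissues of the eye, so their levels in the pool do not measure the lens alone.

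Enzymes that act on beta crystallins in the lens had all 9 listed genes measured, with a median of 22.0 FPKM. None reached 100 FPKM, against 2.21% of all named genes. The calpains, calcium-activated proteases that remove the terminal extensions of beta chains, were represented by Capn2 at 43.6 FPKM, Capn1 at 29.3 FPKM and their small subunit Capns1, the highest of the list, at 86.3 FPKM. Capn3, whose gene also yields lens splice forms in rodents, was lowest at 1.07 FPKM [0.918 to 1.24]. The calpain inhibitor calpastatin (Cast) was at 22.04 FPKM, but on a transcript named Hnrnpa1 in mouse, so its assignment is uncertain. The value of Cast is also the median of the list. Tgm2, a transglutaminase that cross-links beta chains, was at 22.02 FPKM, and Pcmt1, which repairs damaged aspartyl residues in long-lived proteins, at 57.1 FPKM. All of these lay below the lowest measured beta crystallin, a level that only 33 of the 13982 named genes reached.

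The pool held lens RNA and RNA of every other cell type and adjoining tissue that was looked for. All 16 genes of a lens fibre list were measured, with a median of 110 FPKM. At 100 FPKM or more were 8 of 16, against 2.21% of all named genes. How much of the level of each listed gene, such as Vim, Hspb1 or Aqp5, came from the lens was not tested. The list ranged from Dnase2b, the nuclease that degrades fibre cell DNA, at 4.28 FPKM to Grifin. The lens channel Mip was at 194 FPKM. Genes of photoreceptors (18 of 18 measured, median 151 FPKM), pigment epithelium (9 of 10, 102 FPKM), inner retina (9 of 10, 54.1 FPKM), Müller glia (7 of 7, 79.8 FPKM), cornea and sclera (8 of 10, 118 FPKM), skeletal muscle (6 of 8, 66.8 FPKM) and blood (3 of 3, 112 FPKM) were present beside them. The summed beta crystallins were 1.93-fold above the photoreceptor list and 6.01-fold above the pigment epithelium list. Low levels of beta crystallins are also known from retina, and their part in these values was not tested. In such bulk RNA, more lens cells and more RNA per lens cell cannot be told apart.

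As a share of the pool, the beta crystallins made up 2.85% [2.84 to 2.86] of the FPKM summed over named genes, 1.51% from the acidic and 1.34% from the basic chains. Counted as fragments their share was 0.933%. With unnamed transcripts included in the total, they made up 0.512% of its FPKM.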

How the data were processed

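Per the labels' protocols, RNA of 5 Nile rats was pooled, and per the submitters' processing notes Bowtie was used; for its version, the assembler, the counting tool and any genome build, the sources used here state nothing. Per the file headers, the authors deposited for each of 124439 transcripts its FPKM, its estimated fragment count and its length. The deposited FPKM equals the estimated count divided by length and by the stated total (tolerance 1e-05, 124299 of 124299 transcripts with a fragment), so the full assembled length enters each level. Depth per sample is unknown, since the table has a single column.

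Symbols came from the deposited ortholog table, case ignored. Members and listed genes were matched in any of 3 species columns, leaving out a transcript on which the other columns agreed on another symbol. The 13982 named genes used for ranks, medians and shares took the mouse, then rat, then human name. FPKM were summed per gene. Intervals are 95% gamma intervals for Poisson counts, and delta-method intervals for log2 ratios, checked on simulated counts. PCR copies are not independent molecules, so all intervals cover counting error only. At this depth 3 fragments, the limit that a count of 0 allows, are 0.0462 FPKM on 1000 nt.

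Named were the members, the other crystallins and relatives, the genes ranked next to each member, and the highest and lowest gene of the lens factor, lens fibre and enzyme lists; further genes, and the genome neighbours, were chosen after their values were seen. The members and lists were chosen with earlier results of these data known. A gene ranked between Cryba4 and Crybb3 is not reported here. No sequence was used. Alternatives covered the combination of transcripts, short transcripts, the unit, the naming and, added after seeing the data, leaving out each member, a mean per chain and keeping the left-out transcripts. Computations ran in Python 3.11.15 with SciPy 1.17.1, pandas 2.3.3 and NumPy 2.4.6, and figures in Matplotlib 3.10.9.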

Additional observations from a re-analysis of the deposited data

Results flagged for a closer look

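A signal as strong as that of the beta crystallins lay in transcripts that no comparison used. At or above the level of Crybb2 stood 202 transcripts without a symbol, and 36 of these were at least as long as the shortest member transcript. Of the 124439 transcripts in all, only 15454 had a symbol, so the 202 are a small part of those without one. Among the 13982 named genes, 33 were at or above that level. The former are counts of transcripts and the latter of genes, so the numbers do not show that strong signals are more frequent without a symbol. Of the 36, 9 had an ortholog identifier in place of a symbol, and the highest reached 5379 FPKM. Whether Cryba1, or further pieces of the measured members, are among them was not tested.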

How the results depend on the processing

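Of 183 levels, ratios and shares recomputed under alternatives, 145 stayed within the counting interval of the reported value, 34 moved beyond it and 4 reversed. Nearly all of the 145 equalled the reported value exactly, so their number is no measure of robustness. The member levels, and the ratios between members, could not depend on how transcripts were combined, since each member rested on a single transcript. Adding transcripts with a shared Ensembl identifier added 0 transcripts, and rescaling cancels in every ratio and share. Rescaled to a sum of 1000000, Cryba4, Crybb3, Cryba2, Crybb1 and Crybb2 were at 1689, 1315, 1029, 722 and 366. In fragments the log2 ratios were 0.12 for acidic over basic, 1.85 for beta over alpha and 0.80 for beta over gamma. In the same unit Cryba4 was above Crybb3, Cryba2, Crybb1 and Crybb2 by 0.73, 1.53, 1.91 and 1.44, Crybb3 above Cryba2, Crybb1 and Crybb2 by 0.80, 1.18 and 0.71, and Cryba2 above Crybb1 by 0.38, while Cryba2 over Crybb2 was -0.094 and Crybb1 over Crybb2 was -0.47. That unit drops the division by length.

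Without transcripts of under 500 nt, which removes Cryba2 and Crybb1, acidic over basic was 0.0070, beta over alpha 5.46 and beta over gamma 2.81. Beta over alpha was 1.23 without transcripts of under 300 nt and with the longest transcript, 1.10 with a length-weighted mean and 0.79 with the highest transcript, because these settings treat the short Cryaa transcript differently. The share of named FPKM was 2.99% with the highest transcript, 3.10% with a length-weighted mean and with the longest, 2.90% and 2.12% without transcripts of under 300 and 500 nt, 3.41% where all symbols of a transcript agree, and 0.93% in fragments. Acidic over basic was -1.22 without Cryba4, -0.51 without Cryba2, 0.69 without Crybb1, 0.42 without Crybb2, 1.32 without Crybb3 and 0.76 as a mean per chain. At 1000 FPKM, 3 members counted in place of 5. Division by RefSeq coding length and leaving out samples were not run. No paired analysis was possible because the table holds a single column.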

Other observations

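Genes that carry the name crystallin for a role in other animals, or kinship with such genes, were far below the beta crystallins in the Nile rat eye pool. Crym, a thyroid hormone-binding protein known as mu crystallin, was the highest of the 4 measured at 39.6 FPKM [38.5 to 40.7]. Cryzl1, a relative of zeta crystallin, was at 22.0 FPKM, Cryl1 (lambda crystallin) at 11.7 FPKM and Cryz (zeta crystallin, a quinone reductase) at 6.66 FPKM. The summed beta crystallins were 87.8-fold above the sum of these 4 genes. The median of the 4 was 16.9 FPKM, beside 6.50 FPKM over all named genes.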
